A study of Mus musculus with 22 samples.

Results

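The disease-associated microglia genes are transcripts that microglia, the resident macrophages of the central nervous system, are known to raise around dying cells, plaques and damaged myelin. A list of 10 of them was taken: Apoe, Trem2, Tyrobp, Cst7, Itgax, Clec7a, Spp1, Gpnmb, Axl and Cd68. Each was read from the probe set that carried its symbol alone and had the highest mean signal over the arrays. On this basis 9 of the 10 were measured, among 18193 genes in all. Spp1, which encodes osteopontin, was not analysed here. Spinal cord RNA of C57Bl/6 mice, wild-type and aged 10 to 12 weeks, was hybridised to Affymetrix Mouse430_2 arrays. The groups were 48 h after a 7.5 min clamp of the aorta (4 caudal and 4 rostral arrays), 24 h after the same clamp (3 caudal and 3 rostral arrays) and sham surgery (3 caudal and 4 rostral arrays). Caudal cord lay below the thoracic level T6 and rostral cord above it. No transgene or drug was named for any group.

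The list joins a surface sensing system to its intracellular products. Trem2 is a receptor for lipids and lipoproteins that signals through the adaptor Tyrobp (DAP12) and the kinase Syk, and Clec7a (dectin-1) is a lectin that also signals through Syk. Itgax is the integrin alpha chain CD11c, and Axl is a receptor tyrosine kinase that takes up apoptotic cells through its ligand Gas6. Apoe carries lipid and binds Trem2. Cst7 (cystatin F) inhibits lysosomal cathepsins, Cd68 is a glycoprotein of the lysosome membrane, and Gpnmb is a glycoprotein of late endosomes and lysosomes. In models of neurodegeneration a first stage with Apoe, Tyrobp and Ctsd is described as independent of Trem2, and a second with Cst7, Itgax, Axl and Lpl as dependent on it. In cord, Apoe is abundant in astrocytes too, and Axl is also made by astrocytes and endothelium.

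All values are log2 signals on which array medians lay between 6.79 and 6.88. Some arrays stood apart. Caudal array 271 (48 h) had a narrower spread over probe sets, an SD of 2.05 against 2.21 to 2.27 on the other 21 arrays. The Gapdh control's 5′ minus 3′ difference was -1.05 on caudal array 274 (48 h) and -0.68 on caudal array 280 (sham), against -0.21 to 0.04 on the other 20. Both 24 h arrays numbered 283 went against their region labels. Hoxc10, a posterior patterning gene, read 5.67 on the library labelled caudal and 10.14 on the library labelled rostral, where the other caudal arrays read 9.19 to 10.48 and the other rostral arrays 5.32 to 6.22. None of the 11 homeostatic microglia markers measured lay below the array's lower quartile on every array of any group. Part of the results that rest on these arrays are given with and without them.

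At 48 h the caudal cord carried a raised signal for most of the list. Against caudal sham, 7 of the 9 genes rose, 1 fell and Axl did not pass the test, where 12.5% of all genes were called, 5.52% as higher and 7.02% as lower. The median change of the 9 was 1.20, and that of all genes 0.00. The gains were 9.47-fold for Clec7a, 5.55-fold for Cd68, 4.47-fold for Cst7, 4.03-fold for Tyrobp, 2.30-fold for Gpnmb, 2.10-fold for Trem2 and 1.63-fold for Itgax, while Apoe fell to 0.77 of its sham signal. For all 8 genes the 4 caudal 48 h arrays did not overlap the 3 sham arrays, and 8.9% of all genes lay wholly higher and 11.1% wholly lower in this way. In whole cord, more cells of a type and more RNA per cell cannot be told apart. With only these 7 arrays in the limma fit, 142 genes were called in all, 0.781% of those tested, and 4 members were among them: Clec7a, Cd68, Cst7 and Gpnmb. Calls used limma with a Benjamini-Hochberg adjusted p under 0.05 over all genes, and errors of changes are standard errors (SE).

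**Figure D1:**
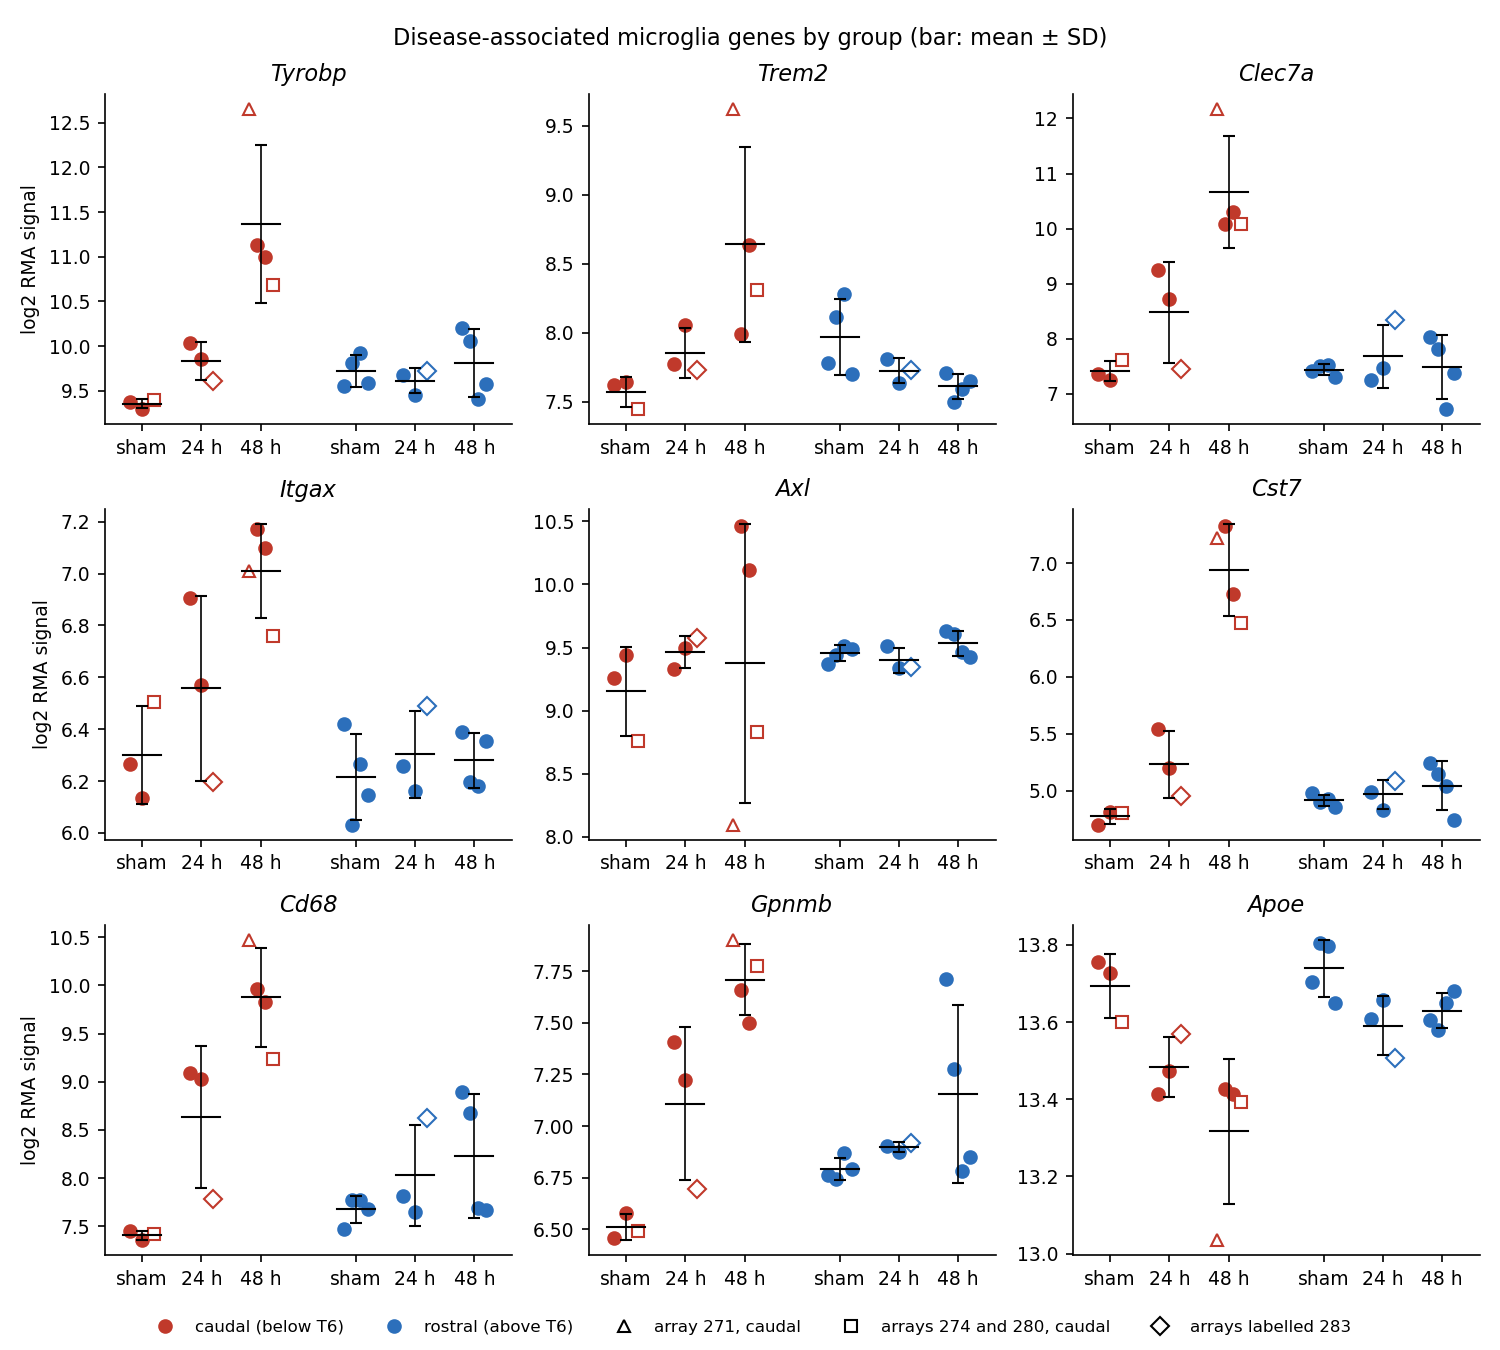
Log2 signal of the 9 measured genes (vertical axis of each panel) on every array, by region and group, with bars for the group mean ± SD and open symbols for the 5 arrays that stood apart. In caudal cord 7 genes sit wholly above sham at 48 h, Apoe sits below, and the Axl arrays spread to both sides.

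Both transcripts of the Trem2 receptor complex rose. Tyrobp read 12.66, 11.13, 11.00 and 10.68 on the caudal 48 h arrays 271 to 274, against 9.38, 9.30 and 9.39 on caudal sham. Array 271 was the highest and every 48 h array lay above every sham array. The change was 2.01 ± 0.31 on the log2 scale (limma adjusted p = 0.000406), and without caudal array 271 it was 1.58. Trem2 itself read 9.63, 7.99, 8.64 and 8.31 at 48 h, against 7.62, 7.65 and 7.45 in sham. Array 271 again led, and the lowest 48 h array still lay above the highest sham array. Trem2 rose by 1.07 ± 0.25 (limma adjusted p = 0.00995), and by 0.74 without caudal array 271 (adjusted p = 0.0038).

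Clec7a, the dectin-1 lectin, had the largest gain of the 9. It read 12.18, 10.08, 10.30 and 10.08 on the caudal 48 h arrays, against 7.37, 7.26 and 7.62 on caudal sham. Array 271 stood apart at the top, yet the other 3 arrays were also more than 2 log2 units above sham. The change was 3.24 ± 0.46, with a 95% interval of 2.29 to 4.20 (limma adjusted p = 0.000177). It was 2.74 without caudal array 271. Itgax, the CD11c chain, was more even between arrays, with 7.01, 7.17, 7.10 and 6.76 at 48 h against 6.27, 6.13 and 6.51 in sham. Itgax rose by 0.71 ± 0.15 (limma adjusted p = 0.00516), a small gain that was the same size without caudal array 271.

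The lysosomal genes rose together at 48 h. Cst7, the cathepsin inhibitor, read 7.22, 7.33, 6.73 and 6.47 on the caudal 48 h arrays, against 4.70, 4.82 and 4.81 on caudal sham. It lay below the array's lower quartile on all 3 caudal sham arrays and on none of the 4 caudal 48 h arrays, so the dim end limits how well its fold is known. Its change of 2.16 ± 0.17 had the smallest adjusted p of the list (limma, 1.57e-06). Cd68 read 10.48, 9.96, 9.83 and 9.24 at 48 h, against 7.45, 7.35 and 7.41 in sham. The sham arrays were nearly level, and the lowest 48 h array lay well above them. Cd68 rose by 2.47 ± 0.35 (limma adjusted p = 0.000174). Gpnmb had 7.90, 7.66, 7.50 and 7.77 at 48 h, against 6.46, 6.58 and 6.49 in sham. The 4 arrays were close to each other, and Gpnmb rose by 1.20 ± 0.18 (limma adjusted p = 0.00033). Without caudal array 271 the changes were 2.07 for Cst7, 2.27 for Cd68 and 1.13 for Gpnmb.

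Apoe, the lipid carrier, went the other way. It read 13.03, 13.43, 13.41 and 13.39 on the caudal 48 h arrays, against 13.76, 13.73 and 13.60 on caudal sham. Array 271 was the lowest, and all 4 lay below sham. Apoe fell by 0.38 ± 0.09 on the log2 scale (limma adjusted p = 0.0151), and by 0.28 without caudal array 271 (adjusted p = 0.0096). The call was lost without caudal sham array 278 or 279 (limma adjusted p = 0.0796 and 0.0609). The summed signal of 6 astrocyte markers was 14.23 to 15.03 at 48 h and 14.86 to 14.88 in sham, with array 271 lowest, and its part in the fall of Apoe was not tested.

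Axl, the apoptotic cell receptor, split the caudal 48 h arrays. It read 10.46 and 10.11 on arrays 272 and 273, and 8.10 and 8.83 on arrays 271 and 274, against 9.26, 9.44 and 8.76 on caudal sham. So 2 arrays lay above all sham arrays and the others near or below them. The change was 0.22 ± 0.36, with an interval of -0.53 to 0.97 (limma adjusted p = 0.656). The low 48 h values came from arrays 271 and 274, and the lowest sham value from array 280, all of which stood apart in spread or in Gapdh 5′ signal. Without caudal array 271 alone the Axl change was 0.65 (limma adjusted p = 0.105). Without all of these 3 arrays Axl was 0.94 higher at 48 h (limma adjusted p = 7.77e-05). That fit drops the 2 lowest 48 h values and the lowest sham value, and leaves 2 arrays against 2. All 9 genes were then called, as were 25.6% of all genes.

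**Figure D2:**
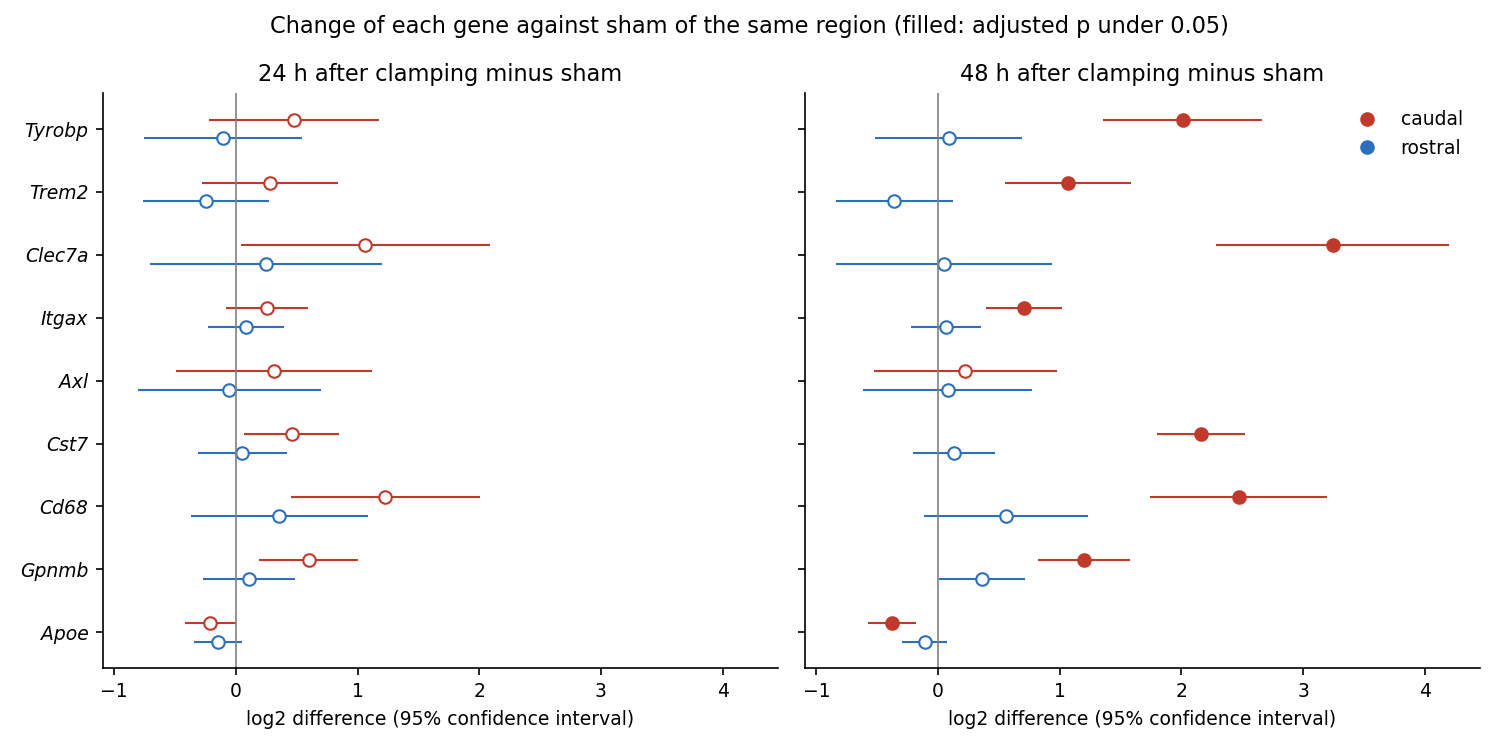
Log2 difference from sham of the same region for each of the 9 genes at 24 h (left) and 48 h (right), with 95% confidence intervals, caudal in red and rostral in blue, and filled points for adjusted p under 0.05. Of the 4 series of points, the caudal 48 h series alone has filled points, 7 to the right of 0 and Apoe to the left.

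The promoters of Clec7a, Cst7 and Cd68, the genes with the largest gains, are shown because these genes moved together. Each line gives the 250 bases before the gene's start, 5′ to 3′, from RefSeq on GRCm38.p6. Capitals mark matches on the printed strand to the PU.1 core GAGGAA, the ETS core GGAAGT or the AP-1 motif TGANTCA.
Clec7a (chr6:129472786-129473035, minus strand): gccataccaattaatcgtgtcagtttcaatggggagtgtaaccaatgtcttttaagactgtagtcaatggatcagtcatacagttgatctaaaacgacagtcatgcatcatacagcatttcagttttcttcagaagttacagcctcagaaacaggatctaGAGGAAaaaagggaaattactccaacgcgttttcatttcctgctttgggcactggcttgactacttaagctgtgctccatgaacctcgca
Cst7 (chr2:150570165-150570414, plus strand): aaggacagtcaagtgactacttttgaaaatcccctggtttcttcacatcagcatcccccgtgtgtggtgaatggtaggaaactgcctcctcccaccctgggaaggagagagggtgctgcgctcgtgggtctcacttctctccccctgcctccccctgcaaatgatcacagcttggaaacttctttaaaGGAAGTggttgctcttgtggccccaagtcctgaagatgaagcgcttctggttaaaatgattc
Cd68 (chr11:69666171-69666420, minus strand): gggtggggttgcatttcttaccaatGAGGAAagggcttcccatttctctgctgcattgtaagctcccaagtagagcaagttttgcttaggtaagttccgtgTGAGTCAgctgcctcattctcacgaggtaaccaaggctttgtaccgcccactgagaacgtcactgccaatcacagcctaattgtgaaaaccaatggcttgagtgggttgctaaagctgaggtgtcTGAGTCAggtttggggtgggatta

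PU.1 is the ETS-family factor that specifies macrophages and microglia, and AP-1 joins Fos and Jun proteins. GAGGAA occurred, on either strand, in the windows of Apoe, Trem2, Clec7a, Spp1, Axl and Cd68, which are 6 of the 9 listed genes with a window. It occurred in 23.3% of 32851 windows of the same length. A gene counted if any of its windows matched, while the share is of single windows, so count and share cannot be compared directly. The same holds for the motifs below. GGAAGT, which can overlap GAGGAA by GGAA, was found for Cst7, Itgax and Spp1, and in 19.7% of all windows. TGANTCA was found for Trem2, Itgax and Cd68, and in 6.75% of all windows. The NF-kappaB motif GGGANTTCC (1.43% of windows) and the E-box CACGTG (6.02%) matched none of the 9, and an interferon response motif (2.98%) matched Spp1. These are matches of letters in a short window and describe the sequence only. Transcripts of 9 factors of microglia and macrophages were read as well. In caudal cord at 48 h 2 of them rose, where 5.52% of all genes did. They were Spi1, which encodes PU.1, by 1.47 ± 0.25 and Irf8 by 1.28 ± 0.23 (limma adjusted p = 0.00099 and 0.00173).

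A second probe set existed for 3 genes and was dimmer in each case. Over the arrays it averaged 5.33 for Trem2, 4.12 for Gpnmb and 4.01 for Axl. The lower quartiles of the arrays were 5.17 to 5.52, so the means for Gpnmb and Axl lay below all of them. The signs of such dim sets say little. In caudal cord at 48 h its change from sham had the sign of the probe set used, at 0.23 ± 0.13 for Trem2, 0.12 ± 0.10 for Gpnmb and 0.81 ± 0.32 for Axl, and none passed the test over all probe sets (limma adjusted p = 0.251, 0.439 and 0.107). The gains of Trem2 and Gpnmb thus rest on 1 probe set each. For Axl the pair differed in sign against rostral cord at 48 h, at 0.51 for the dimmer set and -0.16 for the set used.

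In rostral cord, above T6, 0 of the 9 genes were called at 48 h against rostral sham by limma, where 0.61% of all genes were. An unadjusted p under 0.05 was found for 1 member and for 1288 of all 18193 genes. The median change was 0.08. Cd68 had the widest difference, with 8.89, 8.67, 7.69 and 7.67 on rostral arrays 271 to 274 against 7.47, 7.77, 7.77 and 7.68 in sham. Arrays 271 and 272 lay above all sham arrays and the other pair among them. The difference was 0.56 ± 0.32, with an interval of -0.12 to 1.23 (limma adjusted p = 0.876). Gpnmb, at 7.71, 7.28, 6.78 and 6.85 against 6.76, 6.74, 6.87 and 6.79 in sham, showed the same 2 arrays high (0.36 ± 0.17, limma adjusted p = 0.67). Those arrays were also higher for macrophage genes: a summed signal of 11 monocyte and macrophage markers was 11.67 and 11.62 on rostral arrays 271 and 272, 11.24 and 11.26 on 273 and 274, and 11.03 to 11.17 in rostral sham. The part of these markers in the result was not tested. Clec7a differed by only 0.05 ± 0.42 in rostral cord, with an interval of -0.83 to 0.93.

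At 24 h no gene of the list was called in caudal cord against sham by limma, where 0.0055% of all genes, a single gene, was. That gene was Lpl, the lipoprotein lipase of the second stage, 1.60 ± 0.21 higher (limma adjusted p = 0.00903). Summed signals on the caudal 24 h arrays were 7.81 to 9.64 for 5 skeletal muscle markers, against 7.50 to 7.90 in caudal sham. They were 7.41 to 8.47 against 7.14 to 7.44 for 4 adipocyte markers, and 10.21 to 10.32 against 10.18 to 10.35 for 10 heart muscle markers. The part of these markers in the Lpl value was not tested. Unadjusted p-values under 0.05 were found for 4 members and for 528 genes in all. Cd68 read 9.09, 9.03 and 7.78 on caudal arrays 281 to 283, against 7.45, 7.35 and 7.41 in caudal sham, a difference of 1.23 ± 0.37. Clec7a read 9.25, 8.73 and 7.46 at 24 h, against 7.37, 7.26 and 7.62 in sham, a difference of 1.06 ± 0.49. In both, arrays 281 and 282 were above sham, while the array labelled 283, whose Hoxc10 value lay in the rostral range, read nearer to sham. On all 3 caudal 24 h arrays Cd68, Tyrobp, Gpnmb, Cst7 and Trem2 lay above every caudal sham array and Apoe lay below, as did 8.65% of all genes above and 10.5% below. On the array labelled 283, Trem2 (7.73), Tyrobp (9.61) and Cst7 (4.96) lay within the rostral sham ranges (7.70 to 8.28, 9.56 to 9.92 and 4.86 to 4.98). Cd68 (7.78) lay just above its rostral sham range, and Gpnmb (6.69) and Apoe (13.57) lay below theirs. The part of region in this separation was not tested. Without both arrays numbered 283 the differences were 1.66 for Cd68, 1.57 for Clec7a, 0.81 for Gpnmb and 0.60 for Cst7, and none passed the test. In rostral cord at 24 h limma called 0 of 9 members and 0% of all genes, with 142 genes and 0 members at an unadjusted p under 0.05. There the highest 24 h values of Cd68 (8.63) and Clec7a (8.34) came from the other library numbered 283.

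**Figure D3:**
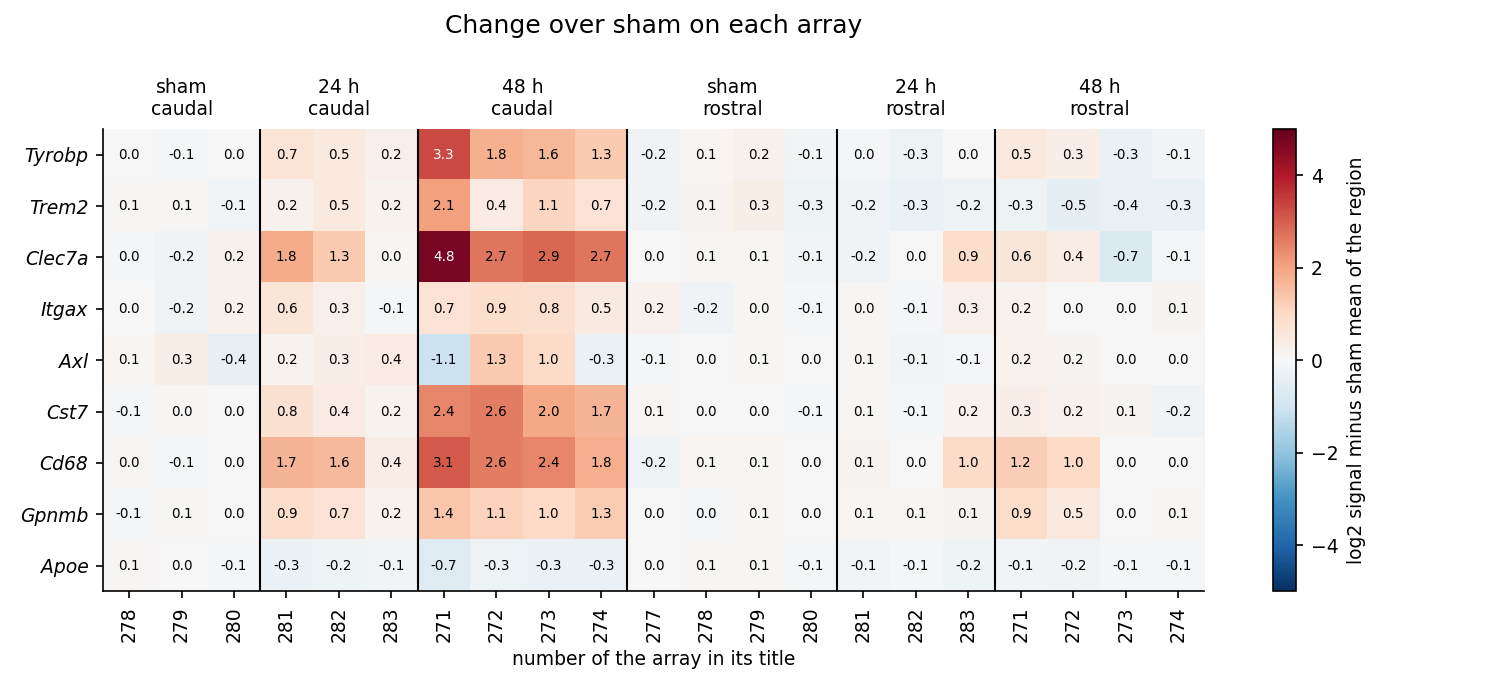
Log2 signal of each gene (down) on each grouped array (across, by region and group) minus the mean of its region's sham arrays, red for higher and blue for lower. Caudal 48 h arrays are red for all genes but Apoe and Axl, and of the 24 h arrays numbered 283 the one labelled rostral reads higher for Clec7a than the one labelled caudal.

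Between 24 h and 48 h in caudal cord, 4 of the 9 genes were higher at the later time, where 6.69% of all genes were called and 4.24% were higher. They were Clec7a by 2.18 ± 0.46, Cst7 by 1.70 ± 0.17, Tyrobp by 1.53 ± 0.31 and Cd68 by 1.24 ± 0.35 (limma adjusted p = 0.00743, 4e-05, 0.00613 and 0.0375). Gpnmb (0.60), Trem2 (0.79) and Itgax (0.45) had adjusted p-values of 0.0542, 0.0638 and 0.0735. Without both arrays numbered 283 only Cst7 was called, at 1.56 (limma adjusted p = 0.0019), and 1.02% of all genes were. With the 2 groups fitted alone limma called no member and 0% of all genes. Over sham, 24 h and 48 h the group means of Clec7a in caudal cord were 7.42 ± 0.19, 8.48 ± 0.92 and 10.66 ± 1.02 (SD, n = 3, 3 and 4). Those of Cst7 were 4.78 ± 0.06, 5.23 ± 0.29 and 6.94 ± 0.41. The 24 h means include the array numbered 283 that is labelled caudal. Both comparisons against sham use the same 3 sham arrays, so they are not independent. In rostral cord 0 of 9 members differed between 48 h and 24 h by limma, where 0.363% of all genes did. None of the members had an unadjusted p under 0.05, where 956 of all 18193 genes did.

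In sham cord 0 of 9 members differed between caudal and rostral arrays by limma, against 0.335% of all genes, with differences from -0.40 for Trem2 to 0.09 for Itgax. No member had an unadjusted p under 0.05 in that fit, where 1003 of all 18193 genes did. All 3 caudal sham arrays nevertheless lay below all 4 rostral sham arrays for Trem2, Tyrobp, Cst7, Gpnmb and Cd68, as they did for 8.67% of all genes, while 12.1% lay wholly higher. With the 2 sham groups fitted alone, Tyrobp (-0.36) and Gpnmb (-0.28) were called (limma adjusted p = 0.0439 and 0.0345), as were 4.59% of all genes. These sham levels enter the difference of clamp effects between the regions. In the fit of all groups the interval for Clec7a still ran from -0.98 to 0.93. At 24 h limma called 0 of 9 members and 0% of all genes between the regions, with 0 members and 57 genes at an unadjusted p under 0.05. Clec7a differed by 0.79 there with all arrays. Without both arrays numbered 283 the difference was 1.63 for Clec7a and 1.33 for Cd68, and neither passed the test.

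At 48 h the caudal and rostral cord of clamped mice differed for 8 of the 9 genes, where 9.71% of all genes were called, 5.57% as higher and 4.14% as lower in caudal cord. Clec7a was 3.17 ± 0.42 higher (limma adjusted p = 0.000181), Cst7 1.89 ± 0.16, Cd68 1.65 ± 0.32, Tyrobp 1.56 ± 0.29, Trem2 1.03 ± 0.23, Itgax 0.73 ± 0.14 and Gpnmb 0.55 ± 0.17. Apoe was 0.31 ± 0.09 lower in caudal cord (limma adjusted p = 0.0297). With the array number as a fixed replicate block the call for Apoe was lost (limma adjusted p = 0.0553), and it was also lost without rostral array 271, 273 or 274 (0.0539, 0.0838 and 0.085). At 48 h the deviations of all 4 same-numbered pairs correlated above 0.1. Among the called genes the caudal and rostral arrays overlapped for Gpnmb alone, where 5.23% of all genes lay wholly higher and 6.26% wholly lower. It overlapped since rostral array 271 read 7.71, and its adjusted p was 0.0436. The call for Gpnmb was lost in 16 of the 21 fits that left out a single array. Axl differed by -0.16 ± 0.33 with all arrays and by 0.76 without caudal arrays 271, 274 and 280 (limma adjusted p = 0.00017). That fit lacks the lowest caudal 48 h values of Axl. With the 2 groups fitted alone Clec7a and Cst7 were called, and 0.511% of all genes.

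Whether the clamp acted differently on the regions was tested as the caudal change from sham minus the rostral change from sham. It passed for 3 of the 9 genes, where 0.561% of all genes were called and 0.407% were higher. The difference of changes was 3.19 ± 0.62 for Clec7a (limma adjusted p = 0.0193), 2.03 ± 0.24 for Cst7 (adjusted p = 0.000248) and 1.92 ± 0.42 for Tyrobp (adjusted p = 0.0473). Cd68 (1.92 ± 0.47), Trem2 (1.43 ± 0.34), Gpnmb (0.84 ± 0.25) and Itgax (0.65 ± 0.20) had adjusted p-values of 0.081, 0.0641, 0.171 and 0.218. The call for Cst7, whose sham and rostral values lay below the lower quartile, was kept in all 21 fits that left out a single array. That for Clec7a was lost in 3 of them, without rostral array 273 (48 h) or caudal sham array 278 or 279 (limma adjusted p = 0.0542, 0.0681 and 0.0754), and that for Tyrobp in 16. The count of called members in those fits ran from 1 to 6. Without both arrays numbered 283, Cd68 passed (limma adjusted p = 0.0318) and Tyrobp did not (0.0728), with the same sizes. Without caudal array 271 the difference was smaller for Tyrobp (1.49) and Trem2 (1.10), and both passed (limma adjusted p = 0.0022 and 0.0087). For Axl the difference was 0.14 with all arrays and 0.86 without caudal arrays 271, 274 and 280 (limma adjusted p = 0.0035). The second fit lacks the lowest caudal 48 h and caudal sham values of Axl.

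Other genes of the same microglial programme moved in part. In caudal cord at 48 h limma called 5.52% of all genes higher than sham and 7.02% lower, and a count of 1 in 6 says little beside that. Of 6 further first-stage genes 1 rose in caudal cord at 48 h against sham, the lysosomal protease Ctsd by 0.63 ± 0.10, and the list's median change was 0.42 where the median of all genes was 0.00. Of 22 further second-stage genes 9 rose and none fell, with a median of 0.41. Ch25h, which makes 25-hydroxycholesterol, rose by 3.96 ± 0.51, and Lpl rose by 2.23 ± 0.20 (limma adjusted p = 9.21e-05 and 4.03e-06). The surface glycoprotein Cd52 rose by 2.98 ± 0.43, the galectin Lgals3 by 2.87 ± 0.49, the chemokine Ccl6 by 2.73 ± 0.45 and the cathepsin Ctsz by 1.16 ± 0.15. The growth factor Csf1, the lipid droplet coat gene Plin2 and the hypoxia factor Hif1a were the other 3, at 0.99, 1.24 and 0.48. In rostral cord at 48 h, where 0.61% of all genes were called, 1 second-stage gene rose, Lpl by 2.79. Mamdc2 fell by 0.60. Heart muscle, which also expresses Lpl, had its markers raised on the same arrays, with a summed signal of 12.83 to 14.22 against 10.23 to 10.33 in rostral sham. In caudal cord at 48 h these markers summed to 10.43 to 11.48 against 10.18 to 10.35 in caudal sham. Their part in the Lpl value of either region was not tested.

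Genes that act next to the members were mixed. Their counts stand beside 5.52% of all genes called higher and 7.02% called lower in caudal cord at 48 h. Of 13 genes of Trem2, Tyrobp and Clec7a signalling 6 rose in caudal cord at 48 h and none fell, with a median of 0.38. Syk, the kinase that both receptors use, rose by 0.81 ± 0.13, the adaptor Lat2 by 1.21 ± 0.27, the lipid kinase subunit Pik3cg by 0.72 ± 0.12 and Bcl10, which links dectin-1 to NF-kappaB, by 0.70 ± 0.17. Plcg2 and Inpp5d rose by 0.28 and 0.40. Of 14 partners of Axl, osteopontin, CD11c and Apoe 3 rose and 2 fell, with a median of 0.10. A fall of 2 in 14 is not far from the share of all genes. The CD11c partner Itgb2 rose by 1.64 ± 0.25, the osteopontin receptor Cd44 by 1.77 ± 0.36 and Pros1, a ligand of the Axl family, by 1.14 ± 0.27. Tyro3, another receptor of that family, fell by 0.92 ± 0.21 and Itgb3 by 0.47 ± 0.14. The Axl ligand Gas6 differed by -0.43 and the receptor Mertk by 0.25, and neither passed the test. In rostral cord at 48 h none of the first-stage, signalling or partner genes was called by limma, where 0.61% of all genes were. An unadjusted p under 0.05 was found for 0, 1 and 6 of them, and for 1288 of all 18193 genes.

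**Figure D4:**
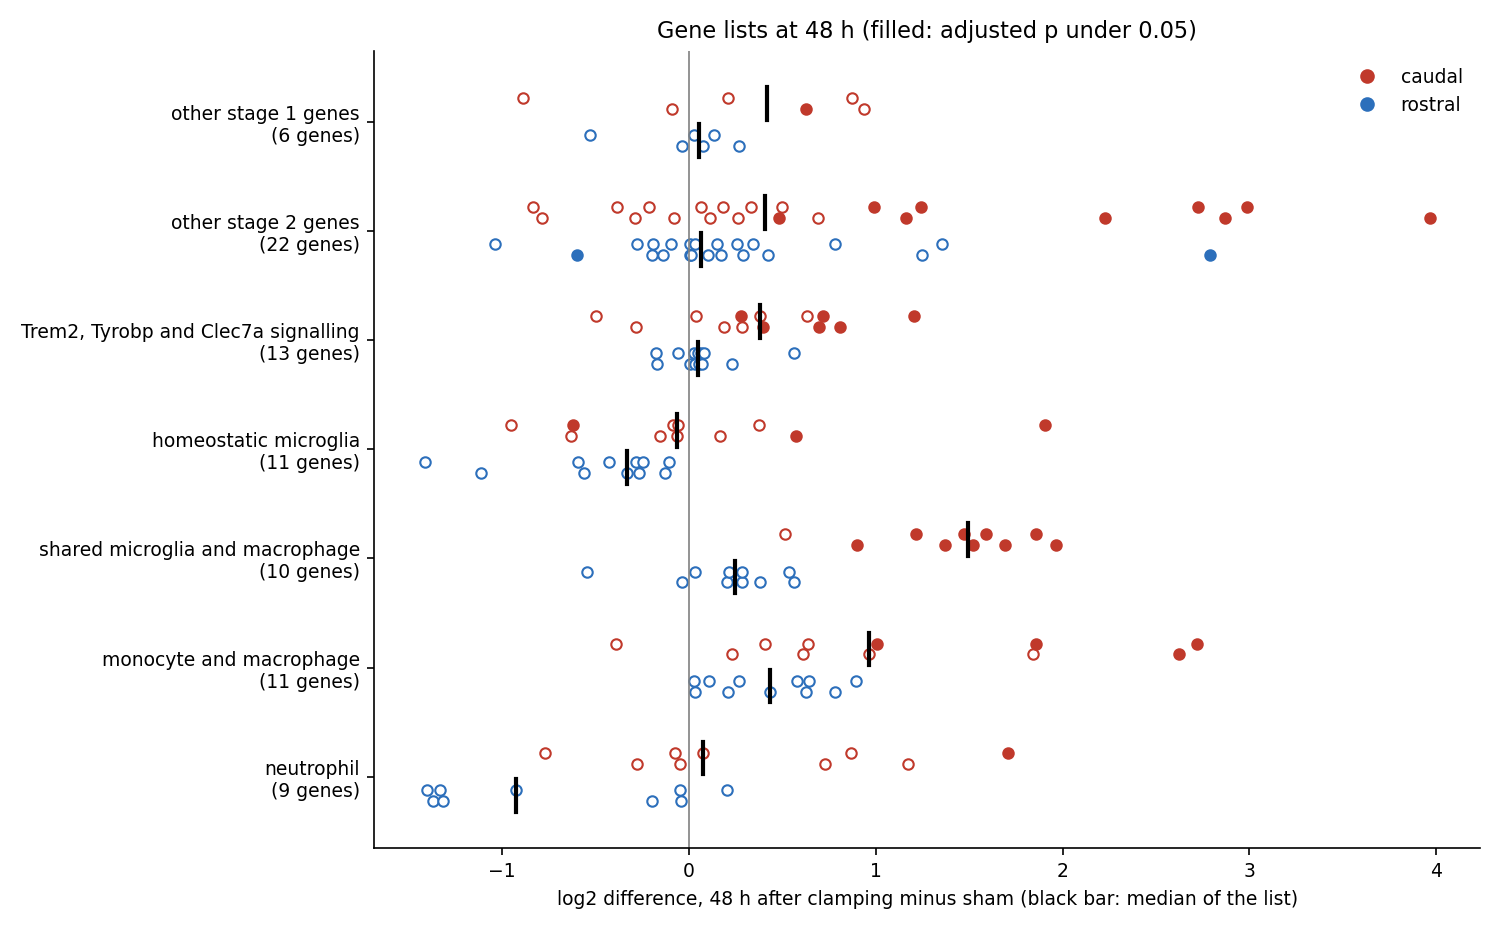
Log2 change at 48 h against sham (horizontal axis) for 7 gene lists, caudal in red above rostral in blue, with 1 point per gene, called genes filled and a black bar at the median. The caudal median is 1.50 for the 10 shared microglia and macrophage genes and -0.06 for the 11 homeostatic microglia genes.

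Markers of the cells that can carry these genes moved unevenly. Beside their counts, 5.52% of all genes were called higher and 7.02% lower in caudal cord at 48 h. Of 10 genes shared by microglia and macrophages 9 rose in caudal cord at 48 h, with a median of 1.50 and a summed signal of 14.02 to 14.69 against 12.87 to 13.03 in sham. The complement genes C1qa, C1qb and C1qc rose by 1.37 ± 0.14, 1.86 ± 0.25 and 1.59 ± 0.15, and the pan-leukocyte phosphatase Ptprc by 1.52 ± 0.18. Of 11 homeostatic microglia genes 2 rose, Fcrls by 1.91 ± 0.17 and Olfml3 by 0.57 ± 0.13, and the transcription factor Sall1 fell by 0.62 ± 0.18. P2ry12 (-0.63), Cx3cr1 (-0.15) and Tmem119 (0.38) did not pass the test, and the summed signal of these 11 was 12.58 to 13.21 against 12.65 to 12.76 in sham. Of 11 monocyte and macrophage markers 4 rose: Ccr1 by 2.72 ± 0.53, Chil3 by 2.62 ± 0.66, Plac8 by 1.86 ± 0.43 and F13a1 by 1.01 ± 0.20. Ccr2 (0.61) and Ms4a7 (0.23) did not pass. Their summed signal was 13.24, 12.54, 12.04 and 11.48 on caudal 48 h arrays 271 to 274 against 11.19 to 11.65 in sham, in the same array order as Cd68 and Tyrobp. The 9 neutrophil markers summed to 11.83 to 14.66 against 11.33 to 13.30, highest on array 271, and Mmp8 was the 1 that rose. The 6 neuron markers summed to 14.48 to 15.28 against 15.39 to 15.44, lowest on array 271. The part of these cells in the gains of the 9 genes was not tested.

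Heart muscle markers, 10 genes, were also unequal between groups. Their summed signal was 12.83 to 14.22 in rostral cord at 48 h against 10.23 to 10.33 in rostral sham, and 10.43 to 11.48 in caudal cord at 48 h against 10.18 to 10.35 in caudal sham. This touches the comparison of regions at 48 h, and its part there was not tested. The remaining lists in caudal cord at 48 h are given as counts beside the 12.5% of all genes called there, 5.52% as higher and 7.02% as lower. A count of 1 in lists this short says little beside those shares. Dendritic cell genes had 1 of 7 lower, astrocyte genes 1 of 6 higher, neuron genes 2 of 6 lower, motor neuron genes 1 of 6 lower and Schwann cell genes 1 of 4 higher. Endothelial genes had 3 of 5 lower, fibroblast and mural genes 1 of 7 lower, and heart muscle genes 5 of 10 higher and 1 lower. Oligodendrocyte, skeletal muscle and adipocyte genes had none called by limma, with 1, 0 and 1 of them at an unadjusted p under 0.05. Of all 18193 genes 6241 had such a p there. In rostral cord at 48 h, where 0.61% of all genes were called, heart muscle genes had 8 of 10 higher and skeletal muscle genes 1 of 5 higher.

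The genes whose pattern over the 21 arrays was most like each member are given as a description, with Pearson's r, and the points share arrays and treatment groups. Cst7 ran closest with the B-cell and myeloid receptor Cd72 (0.99) and the pattern receptor Tlr2 (0.98), and Tlr2 was also among the closest to Clec7a (0.96), beside Slamf9 (0.96). Tyrobp ran with the inflammasome adaptor Pycard (0.98) and Cd52 (0.98). Cd68 ran with Ctsz (0.97) and Irf9 (0.97), and Gpnmb with Ccl12 (0.93) and the complement gene C1qa (0.93). Trem2 ran with the cell cycle kinase Cdk1 (0.92) and Aif1 (0.92), and Itgax with Stk40 (0.92) and the chemokine Ccl4 (0.92). Apoe ran with the neurotensin receptor Ntsr2 (0.93), which astrocytes express, and Minpp1 (0.92). Axl ran with Bzw1 (0.96) and Cox18 (0.95).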

How the data were processed

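RNA of caudal and rostral mouse spinal cord was measured on 22 arrays. The authors deposited log2 signals; the submitters' processing notes name RMA and no version. They were taken as given. The table holds 45101 probe sets: 64 controls, 34945 annotated with a single symbol, 932 with several and 9160 with none. Those with a single symbol gave 18193 genes, each read from its probe set with the highest mean. Arrays have no read depth, and their number limits the precision.

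Groups came from the labels. Rostral array 276 carries both times and stayed out. Nothing in the labels ties each array of a group to its own animal, so p-values speak only of the spread between samples, which may be technical. The model, in limma 3.58.1 (R 4.3.3, statmod 1.5.0), held 6 group means over 21 arrays, with 18.7 degrees of freedom including the prior. Tests were two-sided, with Benjamini-Hochberg adjustment over all genes of a comparison and a threshold of 0.05. On data simulated for caudal 48 h against sham, with 200 changed genes, 81% were recovered at a log2 change of 1 and 98% at 2, with 6 false calls. The simulation gave each gene the same spread in all groups, with independent noise. In the data Clec7a had an SD of 1.02 in caudal cord at 48 h and 0.19 in caudal sham, so these rates may not hold there. The members, 20 further lists (185 genes, 170 measured) and the alternatives were chosen with earlier results of these data known.

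All members are named. From each further list up to 4 genes with the smallest p in caudal 48 h against sham were named; further called genes and defining markers were named after their values were seen. For likeness the 2 genes with the highest Pearson correlation were named. Numbers in the titles were checked as pairs: deviations from group means correlated above 0.1 in 6 of 10 same-numbered pairs, all 4 at 48 h among them. The 24 h pairs 281, 282 and 283 had correlations of -0.19, -0.03 and -0.45. Among arrays of the other region, 7 of 20 arrays correlated best with the one of their own number. The reported fit takes no pairs; for caudal against rostral at 48 h the blocked value is given where it changes a call. Alternatives covered probe set choice, filtering, normalization, array weights, the arrays fitted, array 276, a replicate block, and each array left out.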

Additional observations from a re-analysis of the deposited data

Results flagged for a closer look

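Among the 4 caudal 48 h arrays, array 271 lay far from the others for Apoe and for Clec7a. Apoe read 13.03 there, and the nearest other array read 13.39, a gap of 0.92 of the group's whole range. Clec7a read 12.18, and the nearest other array read 10.30, a gap of 0.89 of the range. Both gaps exceed Dixon's 95% critical value for 4 arrays. Chance alone passes it in about 1 in 20 groups, and 27 were examined.

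The clamp effect at 48 h differed between caudal and rostral cord for 3 genes by the limma test of that difference. It was larger in caudal cord by 3.19 for Clec7a, 2.03 for Cst7 and 1.92 for Tyrobp on the log2 scale (adjusted p = 0.0193, 0.000248 and 0.0473). With each array left out in turn the call was kept in all 21 fits for Cst7, and lost in 3 for Clec7a and in 16 for Tyrobp.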

How the results depend on the processing

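Counts of called members are given here under the alternatives that moved them. The share of all genes called moved too, so a changed count alone does not set the members apart. In the reported fit it was 12.5% for caudal 48 h against sham and 6.69% for caudal 48 h against 24 h. It was 9.71% for caudal against rostral at 48 h and 0.561% for the difference of clamp effects. For caudal 48 h against sham it fell with the groups alone and rose without caudal arrays 271, 274 and 280. Against caudal sham, caudal 48 h had 8 called members in the reported fit, 5 of 6 tested among brighter genes, 4 with the compared groups alone, and 7 to 8 with each array left out in turn. Caudal 24 h against sham had 1 with array weights. Caudal 48 h against 24 h had 7 with array weights, 0 with the groups alone and 1 without both arrays numbered 283. With single arrays left out it had 1 to 7, the lowest without caudal array 283 (24 h) and the highest without caudal array 274 (48 h). Caudal against rostral had 2 in sham with the groups alone, and 1 at 24 h (Clec7a) without all 5 arrays that stood apart. At 48 h it had 5 among brighter genes, 2 with the groups alone and 5 at a change of at least 2-fold, and 6 to 8 with single arrays left out. The difference of clamp effects had 1 among brighter genes, 7 with array weights, 7 without caudal arrays 271, 274 and 280, 7 without all 5, and 1 to 6 with single arrays left out. It had 1 without rostral array 273 (48 h) or caudal sham array 278 or 279, 6 without caudal array 274 and 5 without rostral array 271 (48 h). The numbers in the titles as a random replicate block gave 5 there, 8 for caudal 48 h against sham and 5 for caudal 48 h against 24 h. As a fixed replicate block they gave 7 for caudal against rostral at 48 h, where Apoe alone lost its call, and 4 for the difference of effects, where Trem2 was added (adjusted p = 0.045). The causes were not tested. In the remaining comparisons and alternatives the counts stayed within 1.5 times.

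Single genes were followed under the alternatives in only some comparisons. These were caudal 48 h against sham, 24 h and rostral cord, and the difference of clamp effects. Caudal 24 h and rostral 48 h against sham were followed too. Reversals of sign there touched only changes that were not called in the reported fit. For rostral 48 h minus sham, leaving out single arrays gave -0.044 to 0.22 for Tyrobp (lowest without rostral 271) and -0.13 to 0.30 for Clec7a (below 0 without rostral 271 or 272), and Axl was -0.019 with array 276 as 48 h. In the followed comparisons the other reversals were of Axl. Caudal 48 h minus sham was -0.14 to 0.65, below 0 without caudal 272 or 273. Caudal minus rostral at 48 h was 0.18 with the mean of probe sets, 0.52 with array weights, 0.76 without caudal arrays 271, 274 and 280, 0.76 without all 5, and -0.52 to 0.27 with single arrays left out, above 0 without caudal 271 or 274. Caudal 48 h minus 24 h was 0.30, 0.58, 0.82 and 0.88 under the same 4 settings and -0.45 to 0.34 with single arrays left out. The difference of clamp effects was -0.22 to 0.57, below 0 without caudal 272, 273 or 280. Over all members and alternatives in the followed comparisons, 1746 values kept direction and side of the threshold, 76 lost a call, 47 gained one and 21 reversed. Signs also turned outside that tally. For rostral 24 h minus sham, Clec7a was 0.25 with all arrays and -0.08 without both arrays numbered 283. Signal over background limits Cst7, which lay below the lower quartile on all sham and rostral arrays and 2 of 3 caudal 24 h arrays. Its rostral changes and its differences from 24 h and from rostral cord are thus taken against dim values.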

Other observations

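The rostral array 276, whose labels give both 24 h and 48 h, was in no group. It read 13.69 for Apoe, 8.22 for Trem2, 10.13 for Tyrobp, 4.68 for Cst7, 6.13 for Itgax, 7.76 for Clec7a, 6.80 for Gpnmb, 9.05 for Axl and 7.90 for Cd68. Its values lay a median of 0.01 above the rostral sham means, and 5 of the 9 genes were above them. The 10 heart muscle markers summed to 13.75 on this array, against 12.83 to 14.22 in rostral cord at 48 h, 10.32 to 10.34 at 24 h and 10.23 to 10.33 in sham.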
